A study of Mus musculus with 4 samples.

Results

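The genes for members of the interleukin 12 (IL-12) cytokine family and for interleukin 10 (IL-10) and its receptor were followed across liver cell types: Il12a, Il12b, Il23a, Il27, Ebi3, Il10 and Il10ra. They were taken by gene symbol and make up 7 of the 55414 genes counted. Each of the 7 symbols matched 1 row. The liver cells came from S/S and A/A mice aged 2 months, either 3 h after an intraperitoneal injection of 500 ng of the inflammatory cytokine TNF or without challenge (baseline). The 4 groups were S/S TNF, S/S baseline, A/A TNF and A/A baseline. Each group was a single 10x 3' single-cell library made from pooled cells of 2 mice. What A and S stand for, the strain and the sex are not given in the sources used here. Cells were enriched for non-parenchymal cells by low-speed centrifugation, cleared of dead cells on a density gradient and sorted for macrophages and live cells, so the shares of cell types are partly set by that preparation. A single library per group leaves no replicate check, so none of the differences was tested. Square brackets hold exact 95% intervals, which cover counting error only.

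The cytokines of the IL-12 family are pairs of subunits that share partners. IL-12 joins the p35 subunit (Il12a) to the p40 subunit (Il12b), and IL-23 joins the p19 subunit (Il23a) to the same p40. IL-27 joins the p28 subunit (Il27) to EBI3 (Ebi3), and EBI3 paired with p35 forms IL-35. IL-12 and IL-23 drive interferon gamma and interleukin 17 responses of lymphocytes, while IL-27, IL-35 and IL-10 are mostly known for restraining them. IL-10 signals through Il10ra, the ligand-binding chain found mainly on blood-derived cells, together with the broadly expressed Il10rb. In many tissues, macrophages and dendritic cells are the sources usually named for these cytokines.

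RefSeq promoter sequences (250 bases before to 50 bases after a transcription start, build GRCm38.p6) matched 3 of the 7 genes. The promoters of Il12b and Ebi3 are shown because both genes were over 2-fold higher after TNF in both genotypes. Il12b lies at chr11:44399813-44400112 and Ebi3 at chr17:55952373-55952672, both on the plus strand. Capitals mark letters that match a short NF-kB-type motif on either strand. The half-site form was GGGG, any 2 bases and TTTT, and the full form was GGG, any 2 bases, TT, any base and CC. The motifs were chosen with these promoters in view.
Il12b promoter: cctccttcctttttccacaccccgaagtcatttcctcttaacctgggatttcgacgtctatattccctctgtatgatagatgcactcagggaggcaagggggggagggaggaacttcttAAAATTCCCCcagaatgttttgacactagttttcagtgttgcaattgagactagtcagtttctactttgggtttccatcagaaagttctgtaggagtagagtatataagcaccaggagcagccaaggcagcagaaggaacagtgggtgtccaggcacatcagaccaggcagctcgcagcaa
Ebi3 promoter: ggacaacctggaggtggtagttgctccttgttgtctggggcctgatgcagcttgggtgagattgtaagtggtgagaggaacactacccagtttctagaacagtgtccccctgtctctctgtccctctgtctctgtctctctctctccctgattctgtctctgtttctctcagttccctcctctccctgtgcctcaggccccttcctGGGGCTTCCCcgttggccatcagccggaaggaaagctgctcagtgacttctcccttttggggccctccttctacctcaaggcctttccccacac
The half-site form stood once in the Il12b promoter, on the minus strand, at bases -131 to -122 from the start. It was present in 386 of 32851 promoters (1.18%). The full form stood once in the Ebi3 promoter, on the plus strand, at bases -44 to -35, and was present in 4.79% of all promoters. Neither form was found in the 2 listed promoters of Il12a. The AP-1 type motif TGANTCA, present in 7.81% of all promoters, was found in none of these 4 windows. A match describes the letters only and says nothing of binding.

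Cells with 300 or more genes and no more than 20% of UMIs from mitochondrial genes were kept. The 4 libraries held 2830 to 6452 cells with 20514857 to 53969689 UMIs (counted transcript molecules), and the median cell had 4723.5 to 6504.5 UMIs. Libraries shared 4 to 12 barcodes pairwise. Both TNF libraries were counted with Cell Ranger 6.1.2 and both baseline libraries with version 7.1.0, so the software version and TNF cannot be told apart. Each barcode was gated to 1 of 14 cell types by counting which of 10 marker genes per type it held, with at least 3 markers and more than for any other type. Ties numbered 65 to 279 per library and 515 to 766 barcodes met no gate. No member gene served as a marker. Markers not used for gating were over 2-fold higher inside the gate in all 16 gene and library pairs for the mature dendritic cell, neutrophil, T cell and endothelial gates, in 15 of 16 for macrophages and in 12 of 16 for classical monocytes. Macrophage-gated barcodes were shallow, with medians of 3086.5 and 1504 UMIs in the S/S TNF and S/S baseline libraries and 2549 and 2319 UMIs in the A/A TNF and A/A baseline libraries. Neutrophil-gated barcodes made up 18.8% of kept cells in the S/S TNF library and 3.11% in the S/S baseline library. In A/A they made up 20.4% in the TNF library and 4.06% in the baseline library. In sums over a library, fewer cells of a type and less RNA per cell cannot be told apart. Levels are UMIs per 1000000 UMIs of the same cells (CPM).

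Across all kept cells, Ebi3, Il23a and Il12b were over 2-fold higher after TNF in both genotypes, and Il10 in S/S. Counting genes that reached 20 UMIs over both libraries compared, 4 of the 7 members were over 2-fold higher after TNF in S/S, where 12.6% of all 18331 genes were, and 1 (Il12a) was over 2-fold lower, where 34.6% of all genes were. In A/A, 3 of 7 were over 2-fold higher against 12.9% of 18008 genes, and 0 were over 2-fold lower against 24.9%. The members' median log2 ratio was 1.58 in S/S and 0.56 in A/A, and the median of all genes was -0.51 in S/S and -0.18 in A/A. For S/S against A/A at baseline, 1 of 6 members (Il12a) was over 2-fold higher, where 7.53% of all genes were, and 1 (Il12b, at 12 against 22 UMIs) was over 2-fold lower, where 7.49% were. For S/S against A/A after TNF, 2 of 7 (Il12a and Il12b) were over 2-fold higher, where 4.31% of all genes were, and 0 were over 2-fold lower, where 10.5% were.

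**Figure D1:**
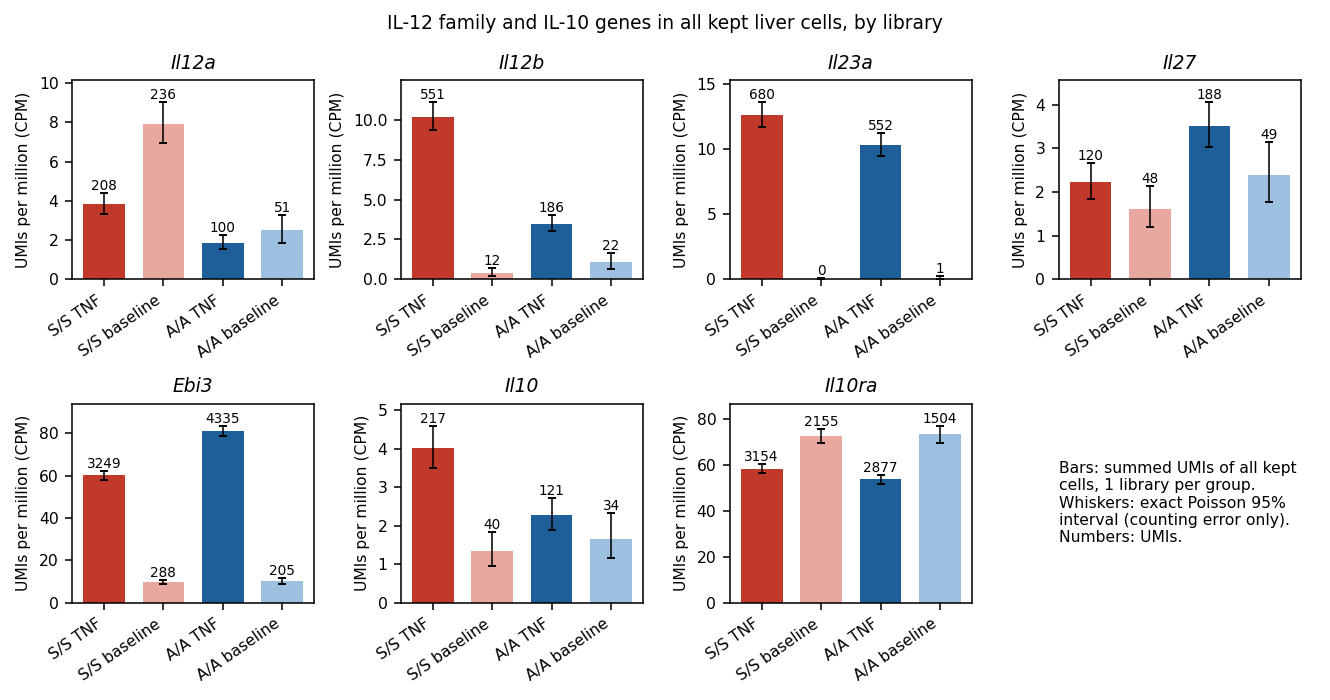
Level of each of the 7 genes in all kept cells, in CPM, with each gene on its own axis; bars are single libraries, whiskers are exact Poisson 95% intervals and numbers are UMIs. Il23a had 680 and 552 UMIs in the S/S and A/A TNF libraries and at most 1 UMI in either baseline library, while Il10ra was slightly lower after TNF in both genotypes.

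Neutrophils and monocytes, rather than dendritic cells and macrophages, held most UMIs of Ebi3 after TNF. Ebi3 encodes the soluble receptor-like subunit shared by IL-27 and IL-35. All kept cells held 3249 Ebi3 UMIs in the S/S TNF library, against 288 in the S/S baseline library, and 4335 in the A/A TNF library, against 205 in the A/A baseline library. These are 60.2 CPM [58.1 to 62.3] against 9.69 CPM [8.61 to 10.9] in S/S, a log2 ratio of 2.63 [2.46 to 2.81]. In A/A they are 81.1 CPM [78.7 to 83.5] against 9.99 CPM [8.67 to 11.5], a log2 ratio of 3.02 [2.82 to 3.23]. Both TNF libraries were far above both baseline libraries, and the baseline libraries of the 2 genotypes did not differ beyond counting error. Neutrophil-gated barcodes held 47.8% of the Ebi3 UMIs of the S/S TNF library and 60.1% of those of the A/A TNF library, and the monocyte gates together held 26.5% in S/S and 19.8% in A/A.

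Within the neutrophil gate, Ebi3 reached 253 CPM [241 to 266] in the S/S TNF library, against 54.1 CPM [37.2 to 75.9] in the S/S baseline library, a log2 ratio of 2.23 [1.73 to 2.77]. In A/A it reached 333 CPM [321 to 346] after TNF, against 40.5 CPM [25.9 to 60.2] at baseline, a log2 ratio of 3.04 [2.47 to 3.69]. At least 1 Ebi3 UMI was found in 649 of 1042 S/S TNF neutrophils (62.3%), against 21 of 136 at S/S baseline (15.4%), and in 913 of 1316 A/A TNF neutrophils (69.4%), against 19 of 115 at A/A baseline (16.5%). The transcript was thus spread over most barcodes of the gate, with 2 of the 1042 S/S TNF and 7 of the 1316 A/A TNF neutrophils holding more than 10 UMIs. With each cell thinned to 1000 UMIs the shares were 21.2% in the S/S TNF and 3.82% in the S/S baseline library, and 24.9% in the A/A TNF and 5.26% in the A/A baseline library. NK or ILC1-gated barcodes, which served as a gauge of free RNA, held Ebi3 in 4.35% of the S/S TNF cells and 1.15% of the A/A TNF cells. These barcodes were deeper than the neutrophils, with medians of 8345.5 and 9102.5 UMIs against 5467 and 5669.5 UMIs in the S/S and A/A TNF libraries. Other gates stood higher than these: T cells held Ebi3 in 5.02% of the S/S TNF and 4.48% of the A/A TNF barcodes, B cells in 5.88% and 7.95%, and endothelial cells in 8.18% and 3.76%. Their median depths were 9135 and 10859 UMIs for T cells, 7738 and 8593 UMIs for B cells and 6177 and 2885.5 UMIs for endothelial cells. Thinned to 1000 UMIs, these 3 gates lay between 0% and 1.20%.

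Classical monocytes showed the same direction for Ebi3. They had 56.3 CPM [52.1 to 60.8] in the S/S TNF library (668 UMIs), against 14.8 CPM [10.9 to 19.5] in the S/S baseline library (49 UMIs), a log2 ratio of 1.93 [1.51 to 2.38]. In the A/A TNF library they had 105 CPM [97.0 to 113], and the 31 gated barcodes of the A/A baseline library held 7 UMIs, too few cells for a ratio here (under 50). Macrophages differed by less than 2-fold, with 35.7 CPM after TNF and 28.4 CPM at baseline in S/S, a log2 ratio of 0.33 [-0.20 to 0.88]. In A/A macrophages had 51.1 CPM after TNF and 31.5 CPM at baseline, a log2 ratio of 0.70 [0.18 to 1.24]. Plasmacytoid dendritic cells (pDC) were between these, with log2 ratios of 1.46 [0.58 to 2.42] in S/S and 0.99 [0.32 to 1.71] in A/A. T cells, which hold few Ebi3 UMIs, had log2 ratios of 1.12 in S/S (26 UMIs after TNF, 29 at baseline) and 2.34 in A/A (73 UMIs after TNF, 8 at baseline). The part that free RNA has in these low counts was not tested.

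Among gates with at least 50 cells, the order of Ebi3 levels after TNF began with neutrophils in both genotypes. In the S/S TNF library neutrophils were followed by mature dendritic cells at 89.0 CPM [74.6 to 105], nonclassical monocytes at 77.6 CPM [67.0 to 89.4] and classical monocytes at 56.3 CPM, and the first pair of these does not differ beyond counting error. In the A/A TNF library neutrophils were followed by nonclassical monocytes at 178 CPM [151 to 208], classical monocytes at 105 CPM and mature dendritic cells at 76.2 CPM [57.4 to 99.2], of which the last pair has overlapping intervals. Macrophages and type 1 conventional dendritic cells (cDC1) came next in both, with overlapping intervals in both libraries. At baseline, the intervals of neutrophils and macrophages overlapped in both genotypes. For S/S against A/A after TNF, Ebi3 was lower in S/S in nonclassical monocytes (log2 ratio -1.20 [-1.51 to -0.89]) and classical monocytes (-0.89 [-1.05 to -0.74]), and by less in neutrophils (-0.40 [-0.49 to -0.31]). Only the first of these passed 2-fold. The nonclassical monocyte gate differed in depth, with medians of 11110.5 UMIs in the S/S TNF and 5477 UMIs in the A/A TNF library. Its barcodes held a median of 7 gate markers in S/S and 5 in A/A. The part of these differences in the Ebi3 ratio was not tested.

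**Figure D2:**
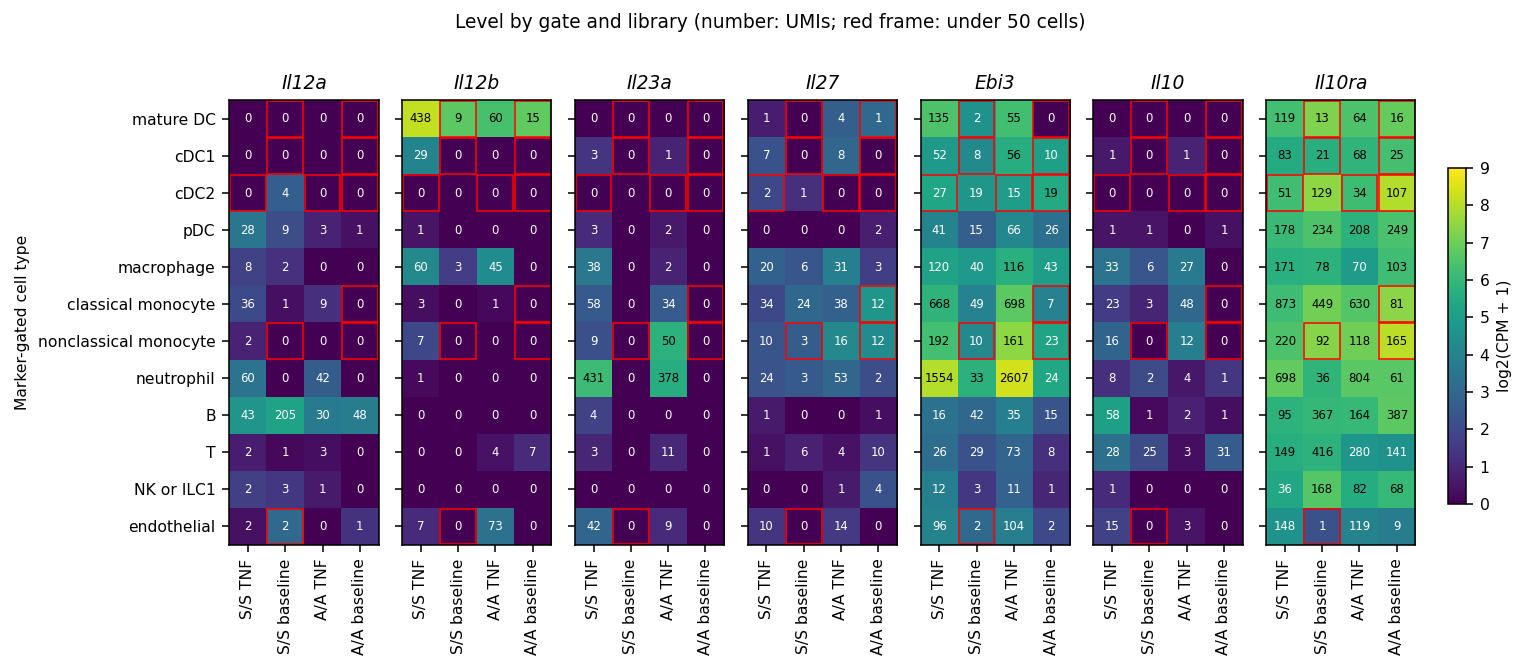
Colour gives log2(CPM + 1) of each gene in 12 marker-gated cell types (rows) and 4 libraries (columns), with UMIs as numbers and red frames where a gate held under 50 cells. Ebi3 is highest in the neutrophil row of both TNF libraries, Il23a in the neutrophil row of the S/S TNF library and the nonclassical monocyte row of the A/A TNF library (55.2 CPM, or 19.9 CPM without 3 barcodes), Il12b in the mature DC row, and Il12a in the B row at S/S baseline (205 UMIs).

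Il27, the p28 subunit that pairs with EBI3, was sparse and differed little between libraries as a whole. All kept cells held 120 UMIs in the S/S TNF library, against 48 in the S/S baseline library, and 188 in the A/A TNF library, against 49 in the A/A baseline library. The log2 ratios were 0.46 [-0.03 to 0.98] in S/S and 0.56 [0.10 to 1.04] in A/A, both within 2-fold. Monocytes, neutrophils and macrophages together held most of the UMIs after TNF, and no barcode held more than 4. Macrophages of A/A had 31 UMIs (13.6 CPM) after TNF, against 3 UMIs (2.19 CPM) at baseline, a ratio of 6.22 with a log2 interval of 0.96 to 4.99. Macrophages of S/S had 20 UMIs (5.95 CPM) after TNF, against 6 UMIs (4.26 CPM) at baseline, a log2 ratio of 0.48 [-0.89 to 2.09]. S/S macrophages were thus lower than A/A macrophages after TNF, by a log2 ratio of -1.20 [-2.09 to -0.34]. Classical monocytes of S/S were lower with TNF, at 2.87 CPM after TNF (34 UMIs), against 7.24 CPM at baseline (24 UMIs), a log2 ratio of -1.34 [-2.13 to -0.52]. Nonclassical monocytes held 10 UMIs in the S/S TNF library and 16 in the A/A TNF library, a log2 ratio of -2.13 [-3.43 to -0.90]. The unequal depth of this gate, given above for Ebi3, applies here as well.

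Il27 and Ebi3 were often found in the same barcode. Of the barcodes with an Il27 UMI, 54 of 101 in the S/S TNF library and 91 of 149 in the A/A TNF library also held Ebi3, against 9 of 44 in the S/S baseline library and 5 of 41 in the A/A baseline library. Among all kept cells, Ebi3 was found in 26.4% of the S/S TNF and 25.2% of the A/A TNF cells. Within the neutrophil gate the share was 71.4% of Il27-positive barcodes in the S/S TNF library, against 62.3% of all its neutrophils, and 73.3% in the A/A TNF library, against 69.4%. Deep barcodes hold more genes of every kind, and the part of depth in this overlap was not tested.

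Il23a, the p19 subunit of IL-23, was nearly absent at baseline and present after TNF in both genotypes. It had 680 UMIs in the S/S TNF library, against 0 in the S/S baseline library, and 552 UMIs in the A/A TNF library, against 1 in the A/A baseline library. The ratio in S/S was at least 125-fold, with 3 UMIs per library taken as the floor, and the ratio in A/A was 212-fold with a log2 interval of 5.24 to 13.03. At the same floor, the absence at S/S baseline allows a share of up to 0.0687% of cells with a UMI. Neutrophils held 431 of the 680 UMIs in the S/S TNF library (63.4%) and 378 of the 552 UMIs in the A/A TNF library (68.5%). That is 70.2 CPM [63.7 to 77.1] in S/S TNF neutrophils and 48.3 CPM [43.6 to 53.4] in A/A TNF neutrophils, against 0 UMIs in either baseline library, at least 14.3-fold higher in S/S and at least 9.55-fold higher in A/A. The S/S level after TNF was above the A/A level by a log2 ratio of 0.54 [0.34 to 0.74], within 2-fold.

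Few neutrophils carried Il23a. A UMI was found in 129 of 1042 S/S TNF neutrophils (12.4%) and in 134 of 1316 A/A TNF neutrophils (10.2%). Thinned to 1000 UMIs, the shares were 5.55% in S/S and 3.55% in A/A. T cell-gated barcodes, with medians of 9135 and 10859 UMIs, held it in 1.08% of the S/S TNF cells and 0.437% of the A/A TNF cells. The neutrophil with the most held 23 UMIs in the S/S TNF library and 22 in the A/A TNF library. Classical monocytes had 4.89 CPM (58 UMIs) in the S/S TNF library, against 0 UMIs in the S/S baseline library, at least 5.41-fold higher. Nonclassical monocytes differed between the genotypes after TNF, with 9 UMIs in 5 of 200 barcodes in S/S and 50 UMIs in 11 of 109 barcodes in A/A, a log2 ratio of -3.92 [-5.13 to -2.89]. Of the 50 A/A UMIs, 32 came from 3 barcodes, and the A/A level was 55.2 CPM [41.0 to 72.8] with them and 19.9 CPM without them. The barcode with the most held 12 UMIs, 4 markers of its own gate and 3 of a second class. The median depth of the gate was 11110.5 UMIs in the S/S TNF and 5477 UMIs in the A/A TNF library. Endothelial-gated barcodes held 42 UMIs in 18 barcodes of the S/S TNF library and 9 UMIs in 9 barcodes of the A/A TNF library. Macrophages had 38 UMIs after TNF in S/S, of which 25 came from 1 barcode, and 2 UMIs in A/A. That barcode held 8 macrophage markers and 6 of a second class, and without it the S/S value was 13 UMIs. The same barcode held 6 of the 8 Il12a UMIs of S/S TNF macrophages. In the mature dendritic cell gate Il23a had 0 UMIs in all 4 libraries, which allows up to 1.98 CPM in the S/S TNF and 4.16 CPM in the A/A TNF library.

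**Figure D3:**
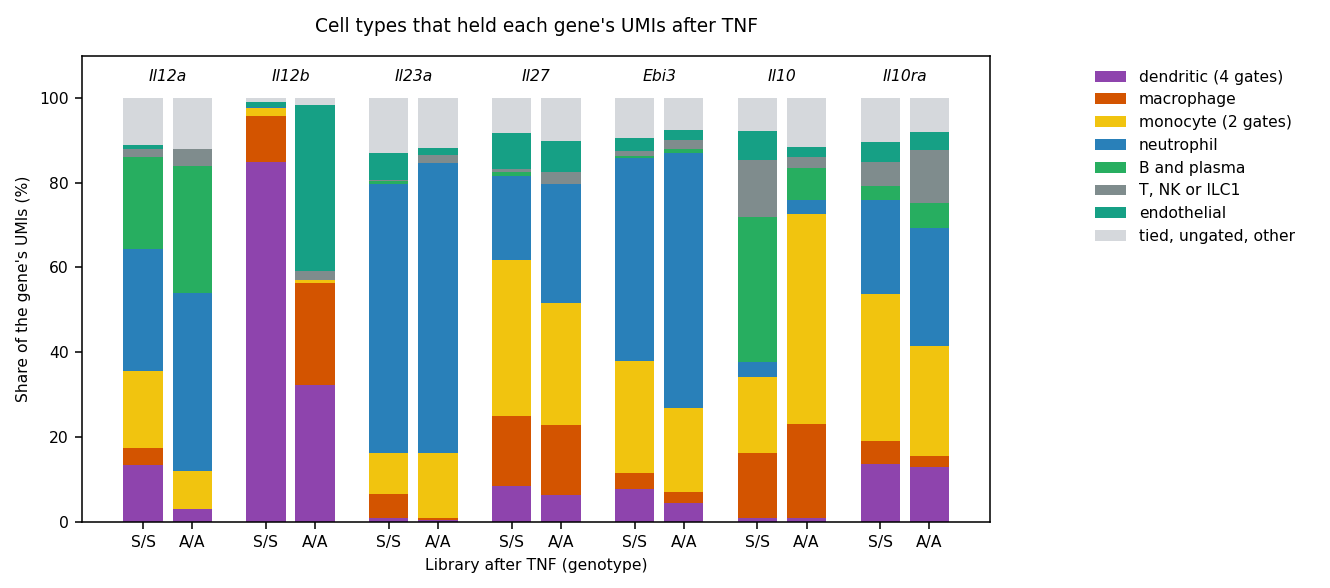
Share of each gene's UMIs held by groups of gated cell types in the S/S TNF (left of each pair) and A/A TNF library (right), in percent of the library's UMIs of that gene. Neutrophils hold most of the Il23a and Ebi3 UMIs in the A/A TNF library, dendritic gates hold 84.9% of Il12b in the S/S TNF library and 32.3% in the A/A TNF library, and Il10ra is spread over many types.

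Il12b, the p40 subunit of both IL-12 and IL-23, was found in few barcodes, chiefly mature dendritic cells and macrophages. All kept cells held 551 UMIs in the S/S TNF library, against 12 in the S/S baseline library, and 186 in the A/A TNF library, against 22 in the A/A baseline library. The log2 ratios were 4.66 [3.84 to 5.62] in S/S and 1.70 [1.06 to 2.41] in A/A. These sums rest on 57 barcodes in the S/S TNF, 5 in the S/S baseline, 44 in the A/A TNF and 4 in the A/A baseline library. In the S/S TNF library the 3 leading barcodes held 134, 120 and 101 UMIs, 64.4% of the total. In the A/A TNF library 1 barcode held 62 UMIs, 33.3% of the total. It was gated as endothelial with 10 markers but held 8 markers of a second class; whether it is a single cell was not tested. Without the leading barcode of each library the levels were 7.73 CPM in the S/S TNF and 0.269 CPM in the S/S baseline library, and 2.32 CPM in the A/A TNF and 0.682 CPM in the A/A baseline library.

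The mature dendritic cell gate, defined by markers such as Ccr7 and Fscn1, held 438 Il12b UMIs in 83 barcodes of the S/S TNF library and 60 UMIs in 50 barcodes of the A/A TNF library. The levels were 289 CPM [262 to 317] in S/S and 83.2 CPM [63.5 to 107] in A/A, a log2 ratio of 1.80 [1.40 to 2.21]. Il12b was found in 13 of the 83 S/S TNF barcodes and in 5 of the 50 A/A TNF barcodes, so the shares were 15.7% and 10.0%. Strongly positive barcodes were few, with 6 over 10 UMIs in the S/S TNF library and 2 in the A/A TNF library. Of the 3 leading S/S TNF barcodes, the one with 101 UMIs held 8 markers of this gate and 7 of a second class. The other 2 held 9 markers of this gate and 3 or 2 of a second class. All 3 were deep, at 36506 to 48745 UMIs, against a gate median of 19012 UMIs. Whether the barcode with 101 UMIs is a single cell was not tested. Without the 3 leading barcodes of each library the levels were 54.7 CPM in S/S (83 UMIs) and 9.70 CPM in A/A (7 UMIs). That left out 3 of the 13 positive barcodes in S/S and 3 of the 5 in A/A. The cut was thus uneven, and no conclusion on the genotypes is drawn from it. At baseline the gate held 11 barcodes in S/S with 9 UMIs and 15 barcodes in A/A with 15 UMIs, too few for a ratio. Their levels of 106 CPM in S/S and 110 CPM in A/A were not below that of the A/A TNF library.

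**Figure D4:**
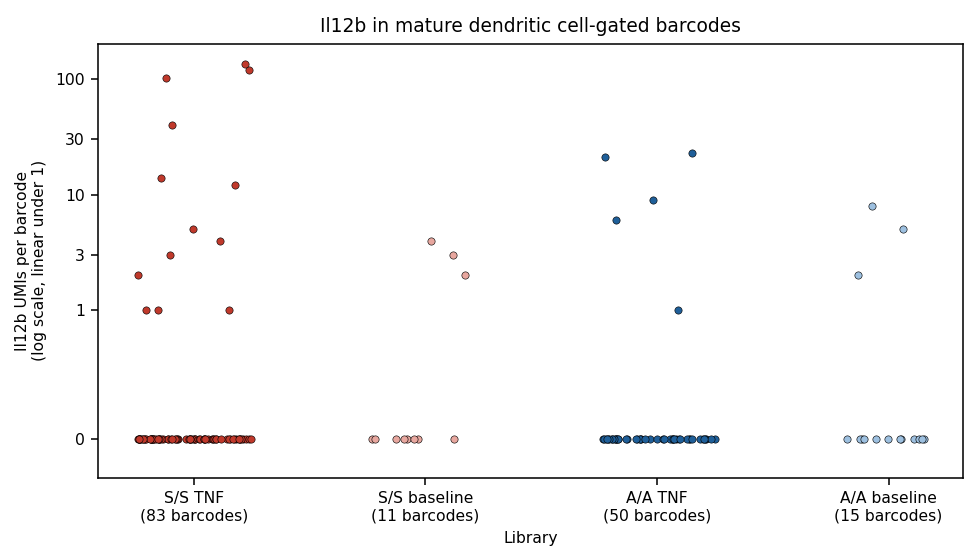
Il12b UMIs in each mature dendritic cell-gated barcode (points, spread sideways for clarity) in the 4 libraries, on a log axis that is linear under 1. Most barcodes are at 0, and 3 barcodes of the S/S TNF library stand at 101 to 134 UMIs, against a highest value of 23 in the A/A TNF library.

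After TNF, macrophages had a lower Il12b level than mature dendritic cells, and a smaller share of their barcodes held it. They held 60 UMIs (17.8 CPM) in the S/S TNF library, against 3 UMIs (2.13 CPM) in the S/S baseline library, a ratio of 8.37 with a log2 interval of 1.45 to 5.38. In A/A they held 45 UMIs (19.8 CPM) after TNF, against 0 UMIs at baseline, at least 9.03-fold higher. The UMIs were spread over 23 of 464 S/S TNF macrophages and 27 of 583 A/A TNF macrophages, though 1 S/S barcode held 26 of the 60. Barcodes with at least 2 of 6 Kupffer cell markers held 54 of the 60 UMIs in S/S and 44 of the 45 in A/A. The S/S barcode with 26 UMIs was among them. These barcodes made up 329 of the 464 S/S TNF and 531 of the 583 A/A TNF macrophages. Of all UMIs in the macrophage gate, they held 2514355 of 3362764 in S/S and 2174976 of 2272144 in A/A. The Il12b levels of S/S and A/A macrophages after TNF did not differ beyond counting error, at a log2 ratio of -0.15 [-0.73 to 0.44]. The summed level of the mature dendritic cell markers in macrophages was 419 CPM in the S/S TNF, 209 CPM in the S/S baseline, 687 CPM in the A/A TNF and 242 CPM in the A/A baseline library. It was higher in each TNF library, and its part in the result was not tested. Il12b was found in 4.96% of S/S TNF and 4.63% of A/A TNF macrophages, and in 2.17% and 2.39% when thinned to 1000 UMIs. B cell-gated barcodes, with deeper medians of 7738 and 8593 UMIs, held 0 Il12b UMIs in both TNF libraries. At the floor of 3 UMIs this allows a share of up to 1.76% in S/S and 1.26% in A/A. T cells held 0 Il12b UMIs in the S/S TNF and 4 in the A/A TNF library. Endothelial-gated barcodes held Il12b in 6 of 685 barcodes of the S/S TNF and 6 of 1302 of the A/A TNF library. cDC1 held 29 UMIs in 4 barcodes of the S/S TNF library, against 0 in the A/A TNF library.

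Il12a, the p35 subunit, followed another pattern, with B cells as its main holders at baseline. All kept cells held 208 UMIs in the S/S TNF library, against 236 in the S/S baseline library, and 100 in the A/A TNF library, against 51 in the A/A baseline library. The log2 ratio with TNF was -1.04 [-1.32 to -0.77] in S/S and -0.41 [-0.91 to 0.11] in A/A. B cells made up 3.08% of kept cells in the S/S TNF library against 21.9% in the S/S baseline library, and 3.70% in the A/A TNF library against 15.3% in the A/A baseline library, and the part of this shift in the library sums was not tested. Within the B cell gate the TNF ratio was smaller, at -0.49 [-0.998 to -0.01] in S/S and -0.14 [-0.85 to 0.55] in A/A. B cells held 25.0 CPM (43 UMIs) in the S/S TNF library, 35.1 CPM (205 UMIs) in the S/S baseline library, 11.9 CPM (30 UMIs) in the A/A TNF library and 13.1 CPM (48 UMIs) in the A/A baseline library. S/S B cells were above A/A B cells at baseline, by a log2 ratio of 1.42 [0.96 to 1.91], and after TNF, by 1.07 [0.37 to 1.80]. These 2 comparisons use different libraries throughout. The UMIs were spread over 148 of 957 B cells at S/S baseline and 40 of 434 at A/A baseline, with at most 5 UMIs in 1 barcode.

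After TNF, Il12a also appeared in neutrophils. It had 60 UMIs in 33 neutrophils of the S/S TNF library (9.77 CPM) and 42 UMIs in 22 neutrophils of the A/A TNF library (5.37 CPM), against 0 UMIs in either baseline library. With 136 S/S and 115 A/A baseline neutrophils, the floor of 3 UMIs sets these as at least 1.99-fold higher in S/S and at least 1.06-fold higher in A/A. Neither bound reaches 2-fold, so a 2-fold difference could not be shown at this depth. Classical monocytes of S/S held 36 UMIs after TNF, against 1 UMI at baseline, a ratio of 10.1 with a log2 interval of 0.76 to 8.67. pDC held 28 UMIs in the S/S TNF library, against 9 in the S/S baseline library, and 14 of the 28 came from 1 barcode. Mature dendritic cells, where Il12b was highest, held 0 Il12a UMIs in all 4 libraries.

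Il12b was seen with Il12a or Il23a in few barcodes, and it was in few barcodes overall. Il12a and Il12b were found together in 2 barcodes of the S/S TNF library and in 0 barcodes of the other 3 libraries. Il23a and Il12b were found together in 2 barcodes of the S/S TNF library and in 0 of the others. In the S/S TNF library Il12b was in 1.57% of the 127 Il12a-positive and 0.855% of the 234 Il23a-positive barcodes, against 1.03% of all kept cells. In the A/A TNF library it was in 0 of 54 and 0 of 208 such barcodes, against 0.682% of all kept cells. At low counts an unseen transcript is not shown to be absent from a cell. Il12a and Ebi3, the IL-35 pair, shared 53 of 127 Il12a-positive barcodes in the S/S TNF library and 32 of 54 in the A/A TNF library, against 9 of 173 at S/S baseline and 3 of 43 at A/A baseline. Ebi3 was itself more frequent after TNF: it was in 41.7% of Il12a-positive barcodes and 26.4% of all kept cells of the S/S TNF library, and in 59.3% and 25.2% in the A/A TNF library. At baseline the 2 shares were 5.20% and 5.02% in S/S and 6.98% and 5.69% in A/A. Within the neutrophil gate Ebi3 was in 66.7% of the Il12a-positive barcodes against 62.3% of all neutrophils in the S/S TNF library, and in 86.4% of 22 against 69.4% in the A/A TNF library.

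Counted by gate, members over 2-fold higher after TNF were 3 of 6 in S/S macrophages (Il12b, Il23a and Il10), where 15.5% of all genes were, and 3 of 5 in A/A macrophages (Il12b, Il27 and Il10), where 15.6% were. In neutrophils they were 2 of 5 in S/S (Il23a and Ebi3), against 11.8% of all genes, and 3 of 5 in A/A (Il23a, Il27 and Ebi3), against 13.6%. Il27 in A/A neutrophils had 53 UMIs after TNF and 2 at baseline, and its log2 ratio of 1.01 has an interval of -0.92 to 4.09. In classical monocytes of S/S they were 4 of 6 (Il12a, Il23a, Ebi3 and Il10), against 11.7%. For S/S over A/A after TNF, 1 of 6 members (Il23a) was over 2-fold higher in macrophages, where 6.31% of all genes were. In neutrophils 0 of 5 were, where 5.92% of all genes were, and in classical monocytes 1 of 6 (Il12a) was, where 7% of all genes were. The Il23a value in S/S macrophages rests on 25 of 38 UMIs from 1 barcode. In the other direction, Il27 in macrophages had a log2 ratio for S/S over A/A after TNF of -1.20 [-2.09 to -0.34], and Il10 in classical monocytes of -1.89 [-2.68 to -1.15], where 26 and 14 of the 48 A/A UMIs came from 2 barcodes. The median over the members counted was -0.21 in macrophages and -0.63 in classical monocytes, beside -0.04 and -0.05 over all genes. With TNF, Il10ra in A/A macrophages (-1.29) and Il27 in S/S classical monocytes (-1.34 [-2.13 to -0.52]) were over 2-fold lower. The median log2 ratio over all genes with TNF was -0.05 in A/A macrophages and -0.28 in S/S classical monocytes. The share of all genes over 2-fold lower was not counted within gates.

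**Figure D5:**
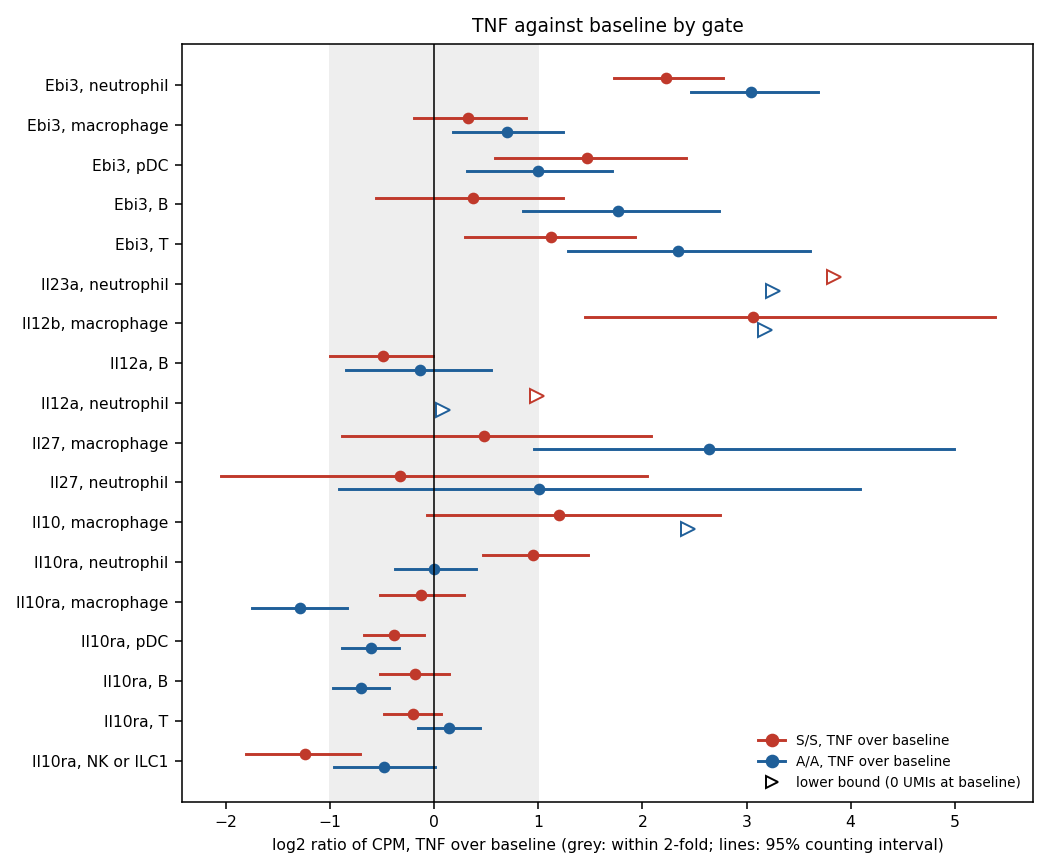
log2 ratio of CPM, TNF over baseline, for chosen pairs of member and gate, S/S above A/A. Each gate shown held at least 50 cells in both libraries of a genotype. Not every pair that met this rule is shown, and classical monocytes of S/S are among those left out. Points with lines are ratios with 95% counting intervals, open triangles are lower bounds, and the grey band is within 2-fold. Ebi3 lies right of the band in neutrophils in both genotypes and inside it in macrophages, while Il10ra in macrophages lies left of it in A/A and inside it in S/S.

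Il10, the anti-inflammatory cytokine, was sparse and several of its sums rested on 1 barcode. All kept cells held 217 UMIs in the S/S TNF library, against 40 in the S/S baseline library, a log2 ratio of 1.58 [1.09 to 2.10]. In A/A they held 121 UMIs in the TNF library, against 34 in the baseline library, a log2 ratio of 0.45 [-0.11 to 1.04]. A single T cell barcode held 30 of the 34 UMIs at A/A baseline, and a single B cell barcode held 58 of the 217 in the S/S TNF library. Without the leading barcode of each library the levels were 2.95 CPM in the S/S TNF and 1.18 CPM in the S/S baseline library, and 1.78 CPM in the A/A TNF and 0.195 CPM in the A/A baseline library. The A/A baseline value then rests on 4 UMIs.

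Il10 was also found in macrophages, monocytes and T cells. Macrophages held 33 UMIs (9.81 CPM) in the S/S TNF library, against 6 UMIs (4.26 CPM) in the S/S baseline library, a log2 ratio of 1.20 [-0.07 to 2.75]. In A/A they held 27 UMIs (11.9 CPM) after TNF, against 0 at baseline, at least 5.42-fold higher. A UMI was found in 15 of 464 S/S TNF and 17 of 583 A/A TNF macrophages, and 1 S/S barcode held 11 of the 33. Classical monocytes held 23 UMIs in 17 barcodes of the S/S TNF library and 48 UMIs in 8 barcodes of the A/A TNF library, where 26 and 14 of the 48 came from 2 barcodes. T cells held 28 UMIs in 12 barcodes in the S/S TNF library and 25 UMIs in 12 barcodes in the S/S baseline library, against 3 UMIs in the A/A TNF library. Mature dendritic cells held 0 Il10 UMIs in all 4 libraries.

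Il10ra, the receptor chain that binds IL-10, was found in many cells of most immune gates, with plasma cells as the low exception at 1 to 7 UMIs per library. All kept cells held 58.4 CPM [56.4 to 60.5] in the S/S TNF library, against 72.5 CPM [69.5 to 75.7] in the S/S baseline library, and 53.8 CPM [51.9 to 55.8] in the A/A TNF library, against 73.3 CPM [69.7 to 77.1] in the A/A baseline library. The log2 ratios were -0.31 [-0.39 to -0.23] in S/S and -0.45 [-0.54 to -0.36] in A/A, beside a median of all genes of -0.51 in S/S and -0.18 in A/A. Neutrophils had 114 CPM [105 to 122] in the S/S TNF library, against 59.0 CPM [41.3 to 81.6] in the S/S baseline library, and 103 CPM [95.8 to 110] in the A/A TNF library, against 103 CPM [78.7 to 132] in the A/A baseline library. The S/S baseline neutrophils, with 36 UMIs, were the low group among these 4. Macrophages had 50.9 CPM [43.5 to 59.1] after TNF and 55.4 CPM [43.8 to 69.2] at baseline in S/S, a log2 ratio of -0.12 [-0.52 to 0.28]. In A/A they had 30.8 CPM [24.0 to 38.9] after TNF and 75.3 CPM [61.5 to 91.4] at baseline, a log2 ratio of -1.29 [-1.75 to -0.84], over 2-fold lower. The difference between these log2 ratios, S/S minus A/A, was 1.17 and was not tested. Under the stricter macrophage gate the S/S log2 ratio was 1.12 and the A/A log2 ratio -1.37. In the Kupffer marker-bearing barcodes the A/A ratio was -0.88 [-1.43 to -0.32], within 2-fold.

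Il10ra levels differed among the other immune gates. Classical monocytes of S/S had 73.6 CPM [68.8 to 78.7] after TNF and 135 CPM [123 to 148] at baseline, a log2 ratio of -0.88 [-1.04 to -0.71]. pDC had log2 ratios with TNF of -0.38 [-0.67 to -0.10] in S/S and -0.61 [-0.88 to -0.34] in A/A, and B cells of -0.18 [-0.53 to 0.14] in S/S and -0.70 [-0.97 to -0.43] in A/A. NK or ILC1 cells of S/S had 41.2 CPM after TNF and 97.6 CPM at baseline, a log2 ratio of -1.24 [-1.81 to -0.72]. T cells of S/S held more than T cells of A/A at baseline, with 55.1 CPM against 23.2 CPM, a log2 ratio of 1.25 [0.97 to 1.53], and after TNF, with 47.7 CPM against 25.5 CPM, a log2 ratio of 0.90 [0.61 to 1.19]. Type 2 conventional dendritic cells (cDC2) of the S/S baseline library had 176 CPM [147 to 210], the highest level in a gate of at least 50 cells across the 4 libraries. Endothelial cells, at 23.6 CPM in the S/S TNF and 15.2 CPM in the A/A TNF library, and erythroid barcodes of the S/S TNF library, at 6.90 CPM, were low.

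Among gates of at least 50 cells, neutrophils stood first for Il10ra level in the S/S TNF library, followed by nonclassical monocytes (88.9 CPM [77.6 to 102]), mature dendritic cells (78.5 CPM [65.0 to 93.9]), classical monocytes and pDC (67.7 CPM [58.1 to 78.4]). Each of the last 4 overlaps its neighbour within counting error. In the A/A TNF library nonclassical monocytes (130 CPM [108 to 156]), neutrophils, classical monocytes (94.5 CPM [87.2 to 102]) and mature dendritic cells (88.7 CPM [68.3 to 113]) stood close together, each overlapping its neighbour.

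Genes around the 7 members are set here beside all genes over all kept cells, of which 12.6% were over 2-fold higher and 34.6% lower after TNF in S/S, and 12.9% higher and 24.9% lower in A/A. Of 7 receptor chains, including Il10ra, 1 was over 2-fold higher after TNF in both genotypes, Il6st (the gp130 chain used by IL-27), at 7959 UMIs in the S/S TNF library, against 1156 in the S/S baseline library, and 10369 in the A/A TNF library, against 1458 in the A/A baseline library. Over 2-fold lower were 4 chains in S/S and 2 in A/A, among them Il12rb2, the signalling chain of the IL-12 receptor, with log2 ratios of -2.20 in S/S and -2.23 in A/A. Stat4, the factor that IL-12 activates, had log2 ratios of -3.43 in S/S and -2.45 in A/A. Of the 8 JAK and STAT genes of these receptors, 1 was over 2-fold higher (Jak2) and 2 lower (Stat4 and Stat5b) after TNF in S/S, and 0 were higher and 2 lower in A/A. Il12rb2 and Stat4 are genes of T and NK cells, whose shares of kept cells were lower in both TNF libraries, and the part of those shares was not tested. T cells took 5.05% in the S/S TNF library against 20.4% in the S/S baseline library, and 14.2% in the A/A TNF library against 16.4% in the A/A baseline library. Of 10 genes known as IL-10 targets or feedback inhibitors, 9 were over 2-fold higher after TNF in S/S and 8 in A/A, led by Il1rn, the interleukin 1 receptor antagonist, with log2 ratios of 5.09 in S/S and 4.84 in A/A, and Socs3, a feedback inhibitor of cytokine signalling, with 2.91 in S/S and 3.68 in A/A. Some of them, such as Tnfaip3 and Zfp36, are also known to respond to TNF itself. Neutrophils took a larger share of kept cells in both TNF libraries, and the part of that share was not tested. The median log2 ratio of the 10 genes was 2.77 in S/S and 1.77 in A/A macrophages, and 1.85 and 1.54 in neutrophils. It was 0.86 in S/S classical monocytes, and 0.98 in S/S and 0.87 in A/A T cells. Medians over all genes in these gates lay between -0.62 and -0.02. Of 17 transcription factors known to act on these cytokine genes, 6 were over 2-fold higher in S/S and 4 in A/A, and 1 was lower in each (Irf4, with log2 ratios of -1.92 in S/S and -1.50 in A/A). Nfkb2 and Nfkbiz led the higher ones, with Nfkb2 at log2 ratios of 2.21 in S/S and 2.29 in A/A.

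Of 7 cytokine and effector genes that IL-12 and IL-23 are known to induce, 4 reached 20 UMIs in S/S, with 1 over 2-fold higher and 3 lower after TNF, and 3 in A/A, with 0 higher and 2 lower. These counts stand beside the shares of all genes given above, 34.6% lower in S/S and 24.9% lower in A/A. T cells, a main source of several of these genes, took a smaller share of kept cells in both TNF libraries, and the part of that share was not tested. Within the T cell gate, 0 of the 4 genes counted in S/S and 0 of the 3 in A/A were over 2-fold lower, and 1 was higher in S/S. Their median log2 ratio was 0.25 in S/S and -0.69 in A/A, beside -0.24 and -0.02 over all genes. The share of all genes past 2-fold was not counted within this gate, so these counts have no background to stand beside. Ifng, interferon gamma, had 160 UMIs in the S/S TNF library, against 453 in the S/S baseline library, a log2 ratio of -2.36, and 493 UMIs in the A/A TNF library, against 401 in the A/A baseline library, a log2 ratio of -1.08. Within the T cell gate Ifng stood at 35.9 CPM in the S/S TNF library, against 41.8 CPM in the S/S baseline library, a log2 ratio of -0.22, and at 34.6 CPM in the A/A TNF library, against 55.7 CPM in the A/A baseline library, a log2 ratio of -0.69. Il17a had 42 UMIs in the S/S TNF library, against 0 in the S/S baseline library and 0 in the A/A TNF library. The number of barcodes that held these UMIs is not given here, so they may rest on few cells. None of 6 other IL-10 family cytokines reached 20 UMIs in any pair of libraries.

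The genes most like each member were sought over 38 sums of 1 gate in 1 library, by Pearson's correlation of log2(CPM + 10). These values share libraries, depth and gates and describe likeness only. Il12b was closest to Cx3cl1 (r = 0.97), Lad1, Gm43413, Nudt17 and Cacnb3 (0.89), of which Nudt17 and Cacnb3 are markers of the mature dendritic cell gate. Il23a was closest to Mybph (0.96), Gm7418, Gm37498, Olfm4 and Gm43936 (0.89). Ebi3 was closest to Gca (0.92), Gm37651, Zfp36, Rhog and Bcl2a1a (0.89). Il12a was closest to 4930597A21Rik (0.86), Gm45548, Bfsp2, Fcmr and Ffar1 (0.83), of which Fcmr is a marker of the B cell gate. Il27 was closest to Snx10 (0.79), Treml4, Rab32, Sppl2a and Lyz1 (0.76), of which Treml4 is a marker of the nonclassical monocyte gate. Il10ra was closest to Grb2 (0.77), Dapp1, Ptprj, Cyrib and Nrros (0.73). Il10 had weaker matches, Afp (0.61), Lpl, Spic, Igfbp1 and Cyp2c29 (0.52).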

How the data were processed

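The authors deposited, for each of the 4 libraries, a filtered matrix of raw UMI counts per gene and barcode. Per the file headers, counting used Cell Ranger 6.1.2 (TNF libraries) or 7.1.0 (baseline libraries), and mm39 is the build in the submitters' processing notes. Whether intronic reads were counted is not given in the sources used here. In the TNF libraries the smallest deposited barcode had 250 genes and the highest mitochondrial share was 19.95%, whereas the baseline libraries reached down to 50 genes and up to 95.6%. Deposited barcodes numbered 3230 to 6531 per library, and Rn18s-rs5 took 5.98% to 17.0% of kept UMIs.

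Barcodes were kept from 300 genes upward, with a mitochondrial share of up to 20%. Each was gated by 10 markers per type for 14 types (1 cDC1 marker was not found), and erythroid and hepatocyte barcodes by a share of over 20% of their UMIs. Kupffer marker-bearing barcodes are macrophage-gated barcodes with 2 of 6 Kupffer markers. No doublet caller was run. Tied barcodes were left ungated, and a stricter gate was tried. UMIs were summed per library and gate and divided by the gate total (CPM). Ratios were given for gates with at least 50 cells in both libraries, with exact Poisson intervals for levels, exact Clopper-Pearson intervals for shares and exact binomial intervals for ratios (95%). A group at 0 was set to a floor of 3 UMIs, per library and gate. The members and lists were chosen with earlier results of these data known. All 7 members are named, with up to 4 genes of each other list by absolute log2 ratio and the 5 genes most like each member. The count and interval code was tested on simulated data. Scripts ran in Python 3.11.15 with pandas 2.3.3, scipy 1.17.1, matplotlib 3.10.9 and numpy 2.4.6.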

Additional observations from a re-analysis of the deposited data

Results flagged for a closer look

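In each result below the S/S and A/A log2 TNF ratios lay on opposite sides of 0, with 1 library per group, so the difference between genotypes was not tested. Il27 in neutrophils had a log2 TNF ratio of -0.33 in S/S and 1.01 in A/A, a difference of -1.34, with 3 baseline UMIs in S/S and 2 in A/A. Il10 in T cells had 1.44 in S/S and -4.22 in A/A, a difference of 5.66, and 30 of the 31 A/A baseline UMIs came from 1 barcode. Il10ra in neutrophils had 0.95 in S/S and -0.00081 in A/A, a difference of 0.95. Il10ra in T cells had -0.21 in S/S and 0.14 in A/A, a difference of -0.35, and both ratios have intervals that include 0. Il10ra in Kupffer marker-bearing macrophages had 0.36 in S/S and -0.88 in A/A, a difference of 1.24.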

How the results depend on the processing

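Among log2 ratios recomputed under other settings, 464 stayed within the counting interval of the reported ratio, 33 lay outside it, and 0 of those over 2-fold as reported changed sign. Ratios reported as bounds have no counting interval, so a band of 1 log2 unit on either side was used for them. Changing only the minimum of UMIs cannot move a ratio. Of the 464, 38 came from the minimum of 50 UMIs and 44 from no minimum, so these say nothing of stability. Of the 33, 12 came from cells thinned to 1000 UMIs, where 14 stayed, and 10 from the strict gate, where 31 stayed. Among recomputed levels, 185 stayed within the interval of the reported level and 31 did not. Of these 31, 15 came from thinned cells, where 21 stayed. Counts of members over 2-fold apart, both directions together, stayed within 1.5 times the reported value in 136 cases and did not in 32, and the cause was not tested. With a pseudocount of 10 CPM, the count for S/S against A/A in all kept cells was 0 after TNF and 0 at baseline (2 each as reported), and that for TNF in S/S was 2 (5 as reported). The same pseudocount gave 0 for S/S against A/A after TNF in classical monocytes and 0 in macrophages (2 each), and 1 for TNF in S/S classical monocytes (5). With cells thinned to 1000 UMIs, S/S against A/A after TNF gave 1 in classical monocytes and 0 in macrophages, and 1 at baseline in all kept cells; TNF gave 1 in A/A macrophages (4 as reported), 0 in S/S macrophages (3) and 1 in S/S classical monocytes. With at least 50 UMIs per pair, S/S against A/A after TNF gave 1 in classical monocytes and 1 in macrophages, and 1 at baseline in all kept cells; TNF gave 1 in A/A macrophages, 1 in S/S macrophages and 3 in S/S classical monocytes. With no minimum of UMIs, S/S against A/A after TNF in neutrophils gave 1 (0 as reported). The strict gate gave 1 for S/S against A/A in macrophages after TNF, 1 at baseline in macrophages and 1 at baseline in neutrophils (0 each as reported at baseline). TNF in S/S neutrophils (2 as reported) gave 4 with the stricter cell filter, 4 without Rn18s-rs5, mitochondrial and hemoglobin transcripts, 4 with median-of-ratios scaling and 4 without the leading barcode. Without the leading barcode, S/S against A/A after TNF in macrophages gave 1, and TNF in S/S macrophages gave 1. Without the 3 leading barcodes, a setting chosen after seeing the data, the counts were 1 for S/S against A/A after TNF in classical monocytes, 1 in macrophages and 2 in neutrophils, and 1 for TNF in S/S macrophages.

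Under the strict gate the Il10ra log2 TNF ratio in S/S macrophages was 1.12, against -0.12 as reported, and that of Ebi3 was -0.21, against 0.33. No paired analysis was possible because each group has 1 library, and for the same reason no replicate could be left out. Median-of-ratios scaling gives ratios only, so levels were not recomputed with it. Low counts limit Il12a, Il27 and Il10 most, and small baseline gates limit neutrophils, monocytes and dendritic cells.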
